A study of Rattus norvegicus with 6 samples.

Results

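The EGF receptor family and its ligands comprised 10 genes picked by symbol out of the 34156 genes of the deposited count table, namely the receptors Egfr, Erbb2 and Erbb3, the ligands Hbegf, Areg, Ereg, Tgfa, Btc and Nrg1, and the receptor inhibitor Errfi1. Each symbol matched 1 gene. The libraries came from rat RA-FLS, fibroblast-like synoviocytes bought from a cell supplier and labelled as rheumatoid arthritis cells of WT genotype. Of the 6 libraries, 3 were from the TNF-α group, which received 10 ng/mL TNF-α, and 3 were from the TNF-α+EMO group, which received 10 ng/mL TNF-α together with 80 μmol/L emodin (EMO, an anthraquinone of rhubarb). Both groups carried TNF-α and no library came from untreated cells, so each value compares EMO with its absence under TNF-α. The labels give day 5, whereas the methods of the study give 24 h of incubation.

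As background, EGFR (ErbB1), ErbB2 and ErbB3 are receptor tyrosine kinases that signal as pairs. EGFR is bound by TGF-α, amphiregulin (Areg), HB-EGF, betacellulin (Btc) and epiregulin (Ereg), ErbB3 is bound by neuregulin 1 (Nrg1), and ErbB2 has no known ligand of its own and acts as the preferred partner of the others. The ligands are made as membrane proteins and released by ADAM proteases, and the occupied receptors switch on Ras, ERK and the genes that ERK induces, among them inhibitors such as Errfi1 (MIG6) and Dusp6 that feed back on the pathway. In synovial fibroblasts the pathway is known as a mitogenic and pro-migratory input.

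All 3 receptors were lower with EMO, whereas the ligands went both ways. Egfr was 22.6-fold, Erbb3 9.04-fold and Erbb2 4.52-fold lower, Hbegf was 2.60-fold lower and Btc fell to the limit of detection, while Tgfa was 2.68-fold and Areg 3.65-fold higher. Nrg1 did not pass the test, Errfi1 was 1.67-fold lower, and Ereg had no counts in any library. A gene was called at an adjusted p under 0.05 by edgeR's quasi-likelihood test over the 13614 genes with enough counts, and a DEG also needed an absolute log2 fold change over 1. Of the 10 genes, 9 had enough counts, 6 were called lower and 2 higher, and 5 of the lower and both of the higher genes were DEGs. Btc among the lower and Areg among the higher genes passed the filter on low counts only through the group where they were high. Their calls and their lack of overlap are therefore no support for a difference. Erbb3 had 11, 13 and 9 raw counts with EMO, so the EMO libraries alone would not have passed that filter. The call of Erbb3 and its lack of overlap are description only. The numbers of called genes have to be read against a comparison in which most genes moved. Of all genes tested, 80.9% were called (41.4% lower and 39.4% higher), and 47.3% were DEGs (27.8% lower and 19.5% higher). In 8 of the 9 genes the groups did not overlap, against 82.9% of all genes tested, so the share of members called was near the background and says nothing particular about the family.

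The libraries held 16813322 to 17794455 counts, and the median log2 fold change over all genes tested was -0.01. Differences between libraries of 1 group exceeded sampling noise, with a chi-square statistic per gene of 4.62 to 6.27 in the pairs without TNF-α+EMO replicate 3 and of 15.1 and 23.5 in the pairs of that library with the other EMO libraries. Without it, the log2 fold change was -4.59 for Egfr and 1.55 for Tgfa, beside -4.50 and 1.42 with it. The labelled cell type was checked against its markers. Of 8 fibroblast markers with enough counts, 7 were lower with EMO and Dcn was higher. Of all genes tested, 41.4% were called lower and 39.4% higher. Lum, among the 7, had 235, 263 and 244 counts without EMO and 0 in each EMO library, so it passed the filter on low counts only through the TNF-α libraries. TPM is a level divided by gene length and scaled to the same total in each library. The fibroblast list summed to 6578 to 6923 TPM in the TNF-α libraries and 1552 to 1705 TPM in the TNF-α+EMO libraries. Of this list, Thy1, Prg4 and Pdpn were nearly absent in both groups. Their means were 5.21, 3.58 and 0.327 normalized counts in the TNF-α group and 0 with EMO. Other markers of the list were abundant without EMO. Pdgfra and Cdh11 had means of 20844 and 2968 normalized counts in the TNF-α group and 216 and 40.3 with EMO. Of the epithelial list, Epcam, Krt18 and Krt5 had 3 counts or fewer in every library, and its summed level, carried mostly by Krt8, was 590.3 to 636 TPM without and 94.1 to 102 TPM with EMO. Of its 2 tested genes Krt8 was called lower, whereas Cldn4 was called higher, with 16, 17 and 28 counts with EMO and 0 in all libraries without it. Cldn4, like Dcn of the fibroblast list, passed the filter on low counts only through the EMO libraries. Both could thus be tested only because they were high there. Ptprc, Adgre1 and Cd163 of the macrophage list were also at 3 counts or fewer in every library, and that list summed to 85.9 to 90.4 TPM without and 45.0 to 45.8 TPM with EMO. This sum was mostly Cd14, which was called lower (log2 fold change -1.10), whereas Cd68, the other tested gene of the list, was called higher (0.75, adjusted p = 0.00024). The smooth muscle and pericyte list fell from 45.2 to 49.4 TPM down to 1.99 to 2.44 TPM. Sox10 and S100b, which mark Schwann cells, had 3 counts or fewer in every library, the endothelial list went from 1.11 to 1.30 TPM down to 0.251 to 0.370 TPM, and the lymphocyte list from 0.259 to 0.439 TPM down to 0 to 0.185 TPM. The part of these shifts in the values of the EGF receptor genes was not tested. In bulk RNA, fewer cells of a type and less RNA per cell cannot be told apart.

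Upstream sequences are shown for 4 genes. Btc and Areg were taken as ligand genes that lie near each other. Egfr had the lowest fitted log2 fold change of the family, and Errfi1 is induced by the pathway it restrains. The 250 bases before the RefSeq start site (build GRCr8) are given 5′ to 3′ on the strand of the gene, and capitals mark matches to any of 5 searched motifs. The motifs were TATAAA (the core promoter element), TGACGTCA (cAMP response element), TGANTCA (AP-1 site, N being any base), GGGCGG (GC box) and the κB consensus, each on both strands, and none of the matches shown overlaps another.
Egfr (chr14:95378376-95378625, plus strand): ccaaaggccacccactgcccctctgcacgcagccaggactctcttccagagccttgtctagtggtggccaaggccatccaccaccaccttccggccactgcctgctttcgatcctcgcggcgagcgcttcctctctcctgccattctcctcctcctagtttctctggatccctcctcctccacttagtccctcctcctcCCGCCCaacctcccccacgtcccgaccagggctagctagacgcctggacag
Btc (chr14:16992418-16992667, plus strand): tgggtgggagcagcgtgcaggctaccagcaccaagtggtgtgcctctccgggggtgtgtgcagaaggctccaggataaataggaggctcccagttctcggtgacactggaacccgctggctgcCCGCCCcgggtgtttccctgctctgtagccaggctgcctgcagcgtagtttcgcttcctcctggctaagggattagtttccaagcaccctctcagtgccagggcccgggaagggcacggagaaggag
Areg (chr14:17265642-17265891, minus strand): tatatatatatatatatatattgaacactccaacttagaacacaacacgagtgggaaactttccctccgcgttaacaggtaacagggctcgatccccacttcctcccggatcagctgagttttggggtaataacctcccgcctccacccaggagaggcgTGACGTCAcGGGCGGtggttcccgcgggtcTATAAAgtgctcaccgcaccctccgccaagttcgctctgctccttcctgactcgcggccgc
Errfi1 (chr5:166606591-166606840, plus strand): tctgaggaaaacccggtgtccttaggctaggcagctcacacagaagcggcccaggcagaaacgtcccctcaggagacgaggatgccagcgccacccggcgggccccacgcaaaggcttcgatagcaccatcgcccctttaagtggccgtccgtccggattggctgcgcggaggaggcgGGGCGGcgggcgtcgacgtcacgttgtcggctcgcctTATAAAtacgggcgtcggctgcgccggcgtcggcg

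The Areg window held the cAMP response element, a GC box and TATAAA in a row, with their first bases 91, 82 and 61 bases before the start. Errfi1 held TATAAA 35 bases and a GC box 72 bases before the start, and the Egfr and Btc windows held a GC box on the reverse strand and no TATAAA. Of the 10 genes, 7 had an entry in the promoter table, and of these 2 held TATAAA, 1 held TGACGTCA and 6 held GGGCGG, against 12.9%, 1.59% and 30.5% of the 33469 windows in the table. None of the 7 held TGANTCA or the κB consensus, which 6.34% and 0.974% of all windows held. The GC content was 63.6% for Egfr, 62.8% for Btc, 54.4% for Areg and 67.2% for Errfi1, against a median of 51.2% over all windows. These matches describe the letters only.

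Among the receptors, Egfr (chromosome 14, 99919485 to 100098796, plus strand, in the deposited coordinates of Rnor_6.0), the receptor of most of the ligands, had 607, 716 and 607 normalized counts under TNF-α alone, and adding EMO left 27.8, 24.6 and 32.6. The highest EMO library thus lay far below the lowest TNF-α library. Its mean fell from 643 ± 62.8 to 28.3 ± 4.04 (mean ± SD of 3 libraries), and the log2 fold change in the edgeR fit was -4.50 ± 0.14 (SE, adjusted p = 2.7e-10). Its per-length level went from the 44.5th to the 10.7th percentile of the genes tested.

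Erbb2 (chromosome 10, 86367596 to 86391728, plus strand), the co-receptor, had 781, 773 and 692 normalized counts under TNF-α alone and 183, 148 and 166 with EMO. The groups did not overlap, and the log2 fold change was -2.18 (SE 0.10, adjusted p = 6.7e-09). The only listed gene that overlaps it had at most 2 counts, and the other 9 genes overlapped no listed gene. Erbb3 (chromosome 7, 2989340 to 3010350, minus strand), the neuregulin receptor with a weak kinase, was much less abundant, at 88.3, 116 and 104 normalized counts without and 11.3, 13.3 and 9.17 with EMO. All EMO libraries were again below all TNF-α libraries, with a log2 fold change of -3.18 (SE 0.26, adjusted p = 6.5e-07). Its raw counts with EMO were 11, 13 and 9, so it needed the TNF-α libraries to pass the filter on low counts. These values of Erbb3 are therefore description only. Erbb4, the remaining receptor of the family, had too few counts to test, with 10, 6 and 11 counts under TNF-α alone and 1, 0 and 0 with EMO. Its summed counts scaled by library size were 25.7-fold higher without EMO (95% exact interval 4.24 to 1054, covering counting error only).

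The decrease of Egfr was larger than that of Erbb2. The log2 ratio of Egfr to Erbb2 counts within a library was -0.36, -0.11 and -0.19 under TNF-α alone and -2.69, -2.57 and -2.33 with EMO, so that no EMO library reached the range of the others. The difference was -2.31 (standard error 0.13), and the two-sided exact permutation test gave p = 0.1, the smallest value that 3 against 3 libraries allow, and 0.1 after adjustment over the 4 pairs of genes compared. In TPM, which divides by gene length and so allows genes to be compared within a library, Egfr and Erbb2 stood at 17.7 ± 1.89 and 18.1 ± 1.18 TPM in the TNF-α group, with overlapping libraries. With EMO they stood at 0.607 ± 0.0669 and 3.12 ± 0.382 TPM, without overlap. Erbb2 therefore made up 47.9% ± 2.40 of the summed TPM of the 3 receptors in the TNF-α group and 80.0% ± 1.53 with EMO, although it fell itself, while the share of Egfr went from 46.9% ± 1.86 to 15.6% ± 1.81. The share of Erbb3 was 5.25% ± 0.598 and 4.41% ± 1.14, and its libraries overlapped (exact permutation p = 0.4, adjusted p = 0.4), with a difference of -0.85 percentage points that was -1.32 without division by gene length. For Egfr and Erbb2 the exact permutation p was 0.1 and the adjusted p 0.13 over the 8 receptor and ligand shares compared.

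**Figure D1:**
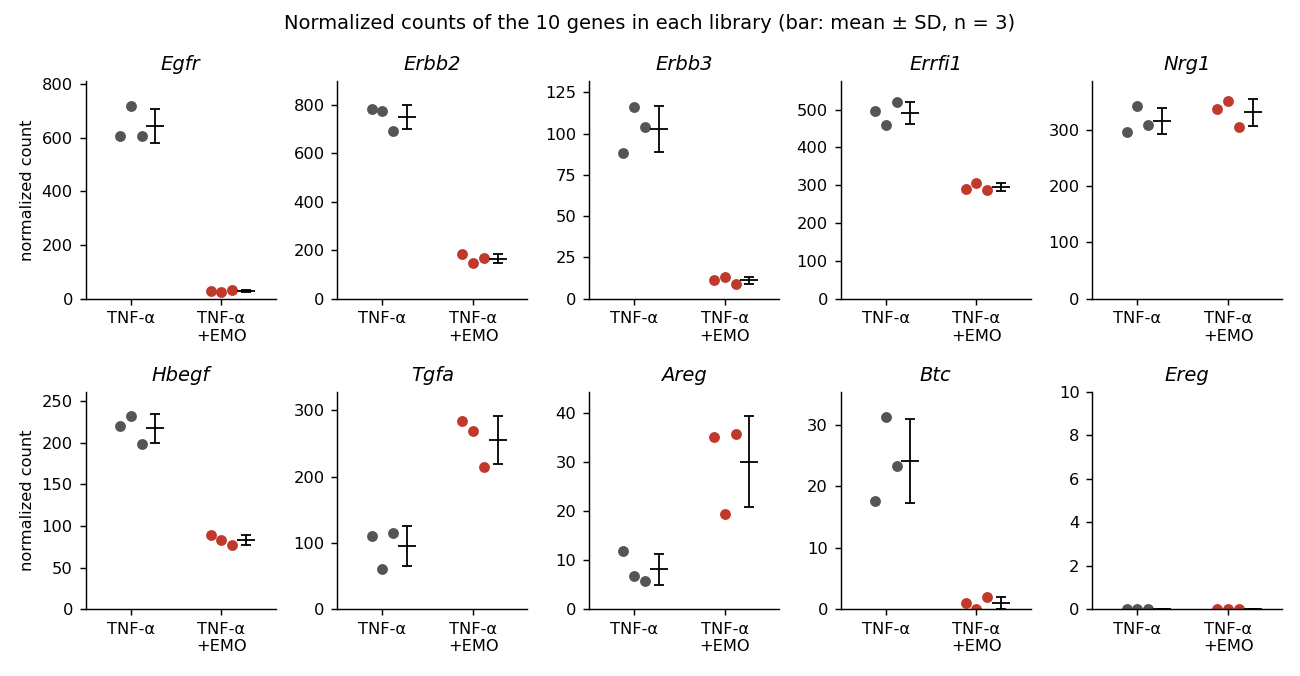
Normalized counts (y axis, from 0, a separate scale for each gene) of the 10 genes in the 3 TNF-α (grey) and 3 TNF-α+EMO (red) libraries, with the mean and SD as a bar beside the points. The EMO points lie below all TNF-α points for Egfr, Erbb2, Erbb3, Errfi1, Hbegf and Btc and above them for Tgfa and Areg, the groups overlap for Nrg1, and Ereg is at 0 throughout.

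Of the ligands, Hbegf (chromosome 18, 29329764 to 29340403, minus strand), the heparin-binding ligand of EGFR, had 219.7, 232 and 199 normalized counts under TNF-α alone and 89.7, 82.9 and 77.4 with EMO. The groups were separate and tight, with a log2 fold change of -1.38 (SE 0.15, adjusted p = 6.0e-06). Btc (chromosome 14, 18231860 to 18272484, plus strand), betacellulin, had only 18, 32 and 24 raw counts under TNF-α alone and 1, 0 and 2 with EMO. It passed the filter on low counts only through the TNF-α libraries, so it had to differ to be tested. Its 74 against 3 summed counts, scaled by library size, gave a 23.5-fold higher level without EMO (95% exact interval 7.74 to 117, counting error only). The fitted log2 fold change of -4.40 (adjusted p = 6.0e-05) depends on the small count that edgeR adds, and it was -5.23 without TNF-α+EMO replicate 3, which held 2 of the 3 counts.

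Tgfa (chromosome 4, 117962319 to 118046344, plus strand), TGF-α, moved the other way. It had 111, 60.5 and 115 normalized counts under TNF-α alone and 284, 269 and 215 with EMO. TNF-α replicate 2 was the lowest of all, and even the lowest EMO library was above the highest TNF-α library. The log2 fold change was 1.42 (standard error 0.23, adjusted p = 0.00018), and 1.11 without TNF-α replicate 2. Areg (chromosome 14, 18521930 to 18531179, minus strand), amphiregulin, was a low-count gene with 12, 7 and 6 raw counts under TNF-α alone and 34, 19 and 35 with EMO. It passed the filter on low counts only through the EMO libraries, since TNF-α replicate 1 was the only TNF-α library with at least 10 counts. Its test thus depended on its being high with EMO, and the values that follow are description only. Its normalized counts of 11.8, 6.83 and 5.85 against 35.1, 19.4 and 35.7 did not overlap, and the log2 fold change was 1.87 (SE 0.41, adjusted p = 0.0014).

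Nrg1 (chromosome 16, 63837216 to 64057434, plus strand), the ligand of ErbB3, had 296, 342 and 309.8 normalized counts under TNF-α alone and 337, 352 and 306 with EMO. The groups overlapped, and the log2 fold change of 0.07 (SE 0.11, adjusted p = 0.56) was below 0 when library totals replaced TMM scaling (-0.04) and without TNF-α replicate 1 (-0.05) or 3 (-0.02), so it has no settled direction. Ereg (chromosome 14, 18576355 to 18591394, minus strand) had 0 counts in all 6 libraries, where a floor of 3 counts corresponds to 0.169 to 0.178 CPM (counts scaled by library total). Epgn also had 0 counts in all libraries. Egf had 3, 9 and 3 raw counts under TNF-α alone and 9, 14 and 10 with EMO, and its ratio of 0.433 without over with EMO had a 95% exact interval of 0.219 to 0.820 for counting error, and the highest TNF-α and the lowest EMO library both had 9 counts. Nrg2 reached at most 4 counts and Nrg4 at most 5, and Nrg3 was not analysed here.

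The order of the ligands by level changed between the groups. In the TNF-α group, Hbegf stood highest at 10.8 ± 0.881 TPM, followed by Nrg1 at 6.84 ± 0.579, Tgfa at 2.42 ± 0.757, Btc at 1.12 ± 0.327 and Areg at 0.817 ± 0.311 TPM. Among these ligands, only the neighbours Btc and Areg overlapped in their libraries. With EMO, Nrg1 stood highest at 5.61 ± 0.605 TPM, followed by Tgfa at 5.10 ± 0.920, Hbegf at 3.24 ± 0.369, Areg at 2.35 ± 0.703 and Btc at 0.0363 ± 0.0352 TPM, and Nrg1 and Tgfa overlapped. Of the summed ligand TPM, Hbegf held 49.0% ± 2.20 in the TNF-α group and 19.8% ± 0.219 with EMO. Tgfa held 11.1% ± 3.77 and 31.1% ± 2.84, and Areg 3.72% ± 1.41 and 14.5% ± 4.49, while the share of Btc went from 5.08% ± 1.35 to 0.232% ± 0.242. The difference for Areg, 10.8 percentage points, was 3.10 when counts were not divided by gene length, and that for Nrg1 turned from 3.28 to -0.53. The shares of Hbegf, Tgfa, Areg and Btc each had an exact permutation p of 0.1 (adjusted p = 0.13), and that of Nrg1, 31.1% ± 1.96 against 34.4% ± 2.43, had p = 0.2 (adjusted p = 0.23, exact permutation test). The log2 ratio of Hbegf to Areg counts was 4.17, 4.99 and 4.98 under TNF-α alone and 1.34, 2.06 and 1.11 with EMO, a difference of -3.21 (standard error 0.40, exact permutation p = 0.1).

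**Figure D2:**
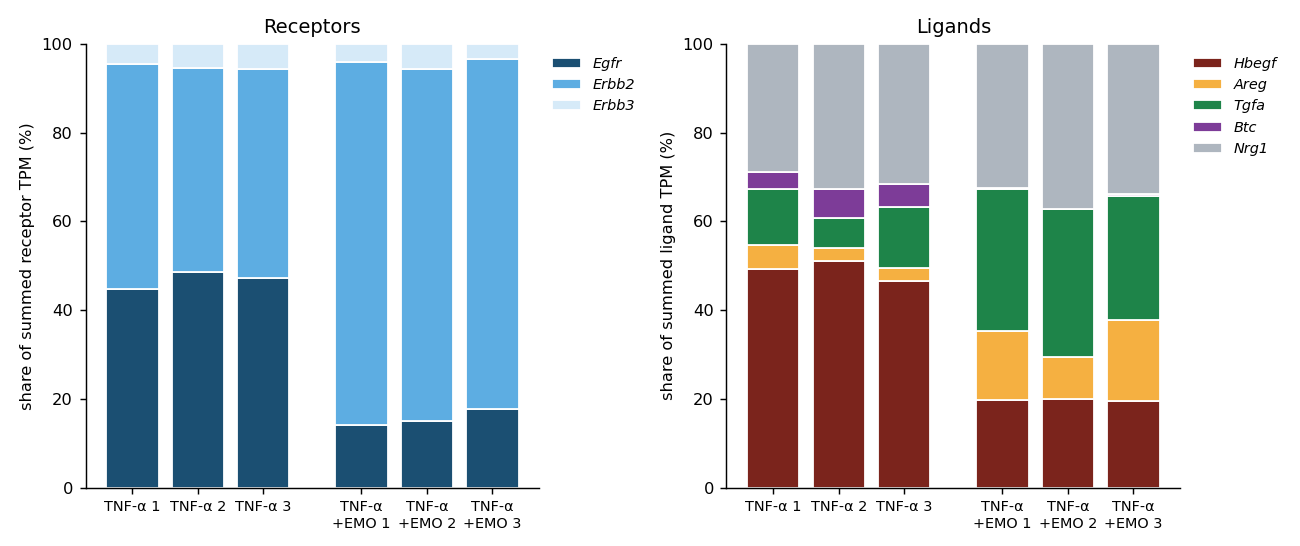
Share (y axis, %) of each gene in the summed TPM of the 3 receptors (left) and of the ligands with counts (right), 1 bar for each library, without error bars. Erbb2 takes 78.9 to 81.7% of receptor TPM in the TNF-α+EMO libraries against 46.0 to 50.6% in the TNF-α libraries, and Tgfa and Areg take larger ligand shares with EMO.

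Levels of ligands and receptors shifted relative to each other. The summed TPM of the 3 receptors was 37.8 ± 2.89 in the TNF-α group and 3.90 ± 0.404 with EMO, whereas that of the 6 ligands was 22.0 ± 0.821 and 16.3 ± 1.81. The size of a difference in these sums between the groups depends on the scaling between libraries. Nrg1, for example, went from 6.84 to 5.61 TPM but from 316 to 332 normalized counts. The lower ligand sum is therefore not a settled result, whereas a ratio within a library does not depend on that scaling. Within each library, the ligand sum was 0.594, 0.557 and 0.598 times the receptor sum without EMO and 4.18, 4.55 and 3.86 times with EMO. The ratio was 7.18-fold higher with EMO (log2 difference 2.84, standard error 0.08), and the exact permutation test again gave its smallest p of 0.1. The log2 ratio of Hbegf to Egfr counts, a ligand and its receptor that both fell, rose in the same way from -1.46, -1.62 and -1.61 to 1.67, 1.73 and 1.24, a difference of 3.11 (standard error 0.16, exact permutation p = 0.1). Sums were added after the values were seen, and they are levels of mRNA and not of protein.

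Errfi1 (chromosome 5, 167952728 to 167966009, plus strand), the inhibitor that binds the kinase domain of ErbB receptors, had 495, 460.3 and 519 normalized counts under TNF-α alone and 289.8, 307 and 287 with EMO. The groups did not overlap, but the log2 fold change of -0.74 (SE 0.09, adjusted p = 1.8e-05) stayed short of the limit for a DEG. Errfi1 stood highest of the 10 genes in both groups, at 18.9 ± 1.06 and 8.84 ± 0.577 TPM, overlapping with Erbb2 and Egfr in the TNF-α libraries and with none of the other genes with EMO. The log2 ratio of Egfr to Errfi1 counts was 0.29, 0.64 and 0.22 without and -3.36, -3.62 and -3.12 with EMO, a difference of -3.75 (standard error 0.19, exact permutation p = 0.1).

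The genes next to the members did not share their changes throughout. Btc, Areg, Ereg and Epgn lie in that order on chromosome 14, and within 250 kb of them Cxcl1, a chemokine, was lower with EMO at a log2 fold change of -3.09 (SE 0.10, adjusted p = 2.3e-10). Cxcl2 and Cxcl3 in the same stretch were called lower as well, whereas Mthfd2l (0.25, adjusted p = 0.41) and Parm1 (0.35, adjusted p = 0.099) did not pass. Areg was the only gene tested there that was called higher, but it passed the filter on low counts only through the EMO libraries. Its call is therefore description only. Cxcl2 and Cxcl3, with means of 0.679 and 5.10 normalized counts with EMO, passed that filter only through the TNF-α libraries, as did Btc. Of the 3 genes tested within 250 kb of Egfr, none was called lower, with log2 fold changes of 0.60 for Sec61g (adjusted p = 7.8e-05), 1.37 for Fbxo48 (adjusted p = 0.020) and -0.05 for Ppp3r1 (adjusted p = 0.47). Around Erbb2, 11 genes were tested, of which 6 were called higher and 1 lower, and around Erbb3 14 of 26 were higher and 7 lower. Around Hbegf 5 of 14 were higher and 5 lower, around Tgfa 2 of 8 and 2, and around Errfi1 2 of 5 and 2. Of all genes tested, 39.4% were called higher and 41.4% lower, and the counts of neighbours were not tested against these shares. The patterns over the 6 libraries most like that of Egfr were those of Mst1r, Man1a1 and RT1-Db1, whose centred log2 CPM differed from those of Egfr by a root mean square of 0.07, 0.09 and 0.10. Mst1r was at 3 or 4 counts in each EMO library, and RT1-Db1 belongs to a gene family whose copies can share reads.

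Genes of the rest of the pathway were taken from lists by role. The lists were chosen with earlier results of these data known, so their shares beside those of all genes are description only. Of 61 such genes outside the receptors, ligands and Errfi1, all had enough counts, 36 were called lower and 20 higher, and 27 and 6 were DEGs, with a median log2 fold change of -0.73 beside -0.01 over all genes tested. The 91.8% called stood beside 80.9% of all genes tested, of which 41.4% were called lower and 39.4% higher and 27.8% and 19.5% were DEGs, and the counts by role that follow have the same background. Of 8 genes of ligand shedding, 6 were lower, all of them DEGs, and 2 were higher, neither of them a DEG. Adam17, the main sheddase of Tgfa and Areg, fell by 1.87 on the log2 scale and Adam10, a sheddase of Btc, by 1.15, while the genes named by rule were Adam12 and Timp3 at the lower end and Rhbdf2 and Frmd8 at the upper end. Adam12, a metalloproteinase that sheds HB-EGF, had 2043, 2227 and 2011 normalized counts without and 7.22, 15.3 and 36.7 with EMO, and its EMO libraries were spread over several fold while far below the others (log2 fold change -6.72, standard error 0.31, adjusted p = 1.0e-06). Timp3, an inhibitor of ADAM17, was lower (-2.73, adjusted p = 3.6e-09), and Rhbdf2 (0.94, adjusted p = 4.7e-08) and Frmd8 (0.87, adjusted p = 9.2e-08), which carry ADAM17 to the cell surface and keep it there, were higher.

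Of 17 adaptors and genes of the Ras-ERK cascade, 10 were called higher, 5 lower and 2 not, against 39.4% higher and 41.4% lower of all genes tested, with a median log2 fold change of 0.24. The 4 DEGs among them went mostly the other way, with 3 lower and 1 higher. On the log2 scale, Map2k2 (MEK2) rose by 1.49 (adjusted p = 2.4e-06) and Araf by 0.92 (adjusted p = 5.4e-07), while Mapk3 (ERK1) was at -1.18 (adjusted p = 2.5e-08) and Plcg1, a phospholipase recruited by EGFR, at -1.26 (adjusted p = 1.4e-08). Of 11 genes of receptor ubiquitination and trafficking, 5 were higher, 5 lower and Cblb did not pass. Sh3kbp1 (CIN85), which links the ubiquitin ligase Cbl to endocytosis, had 502, 478 and 532 normalized counts without and 25.8, 26.6 and 32.6 with EMO, without overlap (-4.15, standard error 0.14, adjusted p = 4.1e-10). Cbl was also lower (-1.72, adjusted p = 2.3e-07), whereas Stam (2.15, adjusted p = 1.8e-09), which sorts ubiquitinated receptors, and Usp8 (1.30, adjusted p = 8.6e-08), which removes ubiquitin from them, were higher.

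The inhibitors and feedback genes, Errfi1 included, were called lower in 12 of 14, against 41.4% of all genes tested, with 1 higher, 1 not called and a median log2 fold change of -1.29. Dusp6, the ERK phosphatase, had 1712, 1664 and 1650.2 normalized counts under TNF-α alone and 63.9, 79.8 and 87.6 with EMO, which left a wide gap between the groups (-4.44, standard error 0.11, adjusted p = 4.4e-11). Spry4, a Sprouty inhibitor, was at -2.66 (adjusted p = 1.7e-09), Spry2 at -1.21, Spred1 at -2.15 and Lrig1, which lowers ErbB receptor protein, at -2.56. Socs5 was the gene called higher, by 0.26 (adjusted p = 0.0083). Of 12 ERK response genes, 9 were called lower, 2 higher and Junb did not pass, again beside 41.4% lower and 39.4% higher of all genes tested, with a median of -0.75. Egr1 (-5.48, adjusted p = 1.7e-11) and Etv4 (-4.81, adjusted p = 1.1e-10), transcription factors induced by ERK, had the lowest log2 fold changes, and the 2 that rose were Fosl1 and Dusp5. Fosl1, an AP-1 subunit, had 249 ± 18.4 normalized counts without and 1314 ± 125 with EMO, and the EMO libraries lay above the others (2.40, standard error 0.10, adjusted p = 2.0e-09). Dusp5, a nuclear ERK phosphatase, was at 1.12 (adjusted p = 0.00018).

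**Figure D3:**
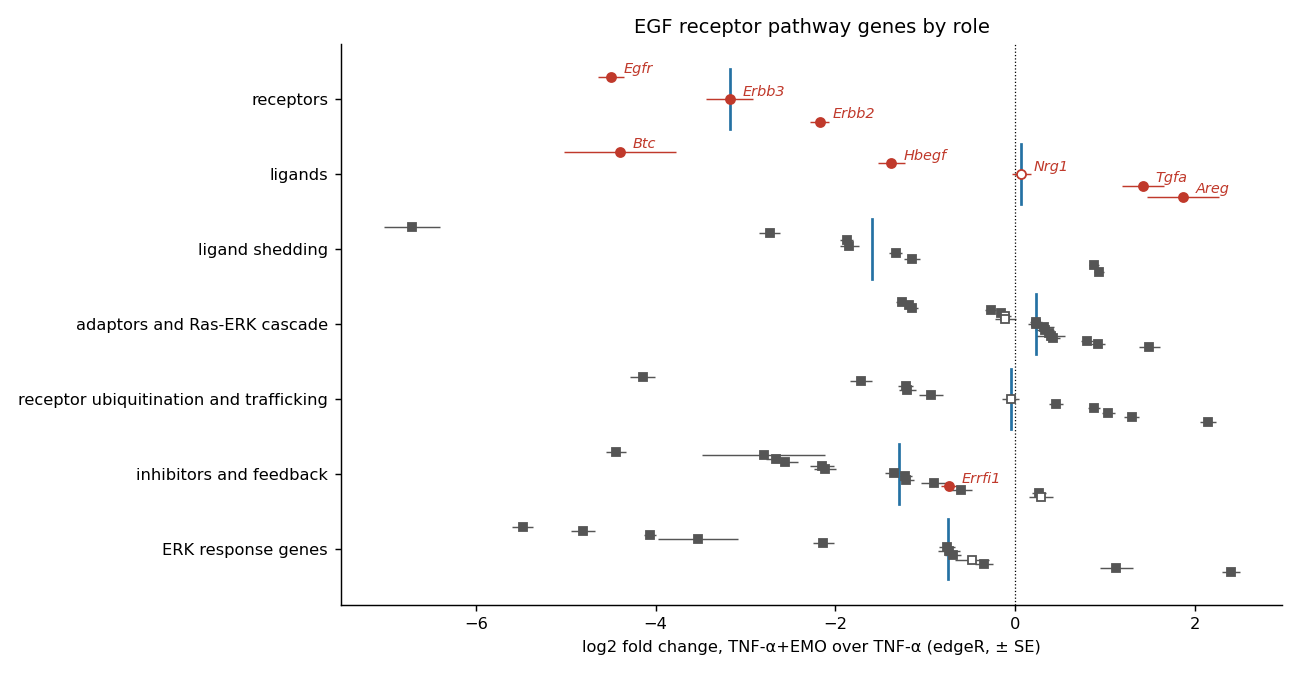
Log2 fold change (x axis, TNF-α+EMO over TNF-α, with the standard error as a bar) of each tested gene of the pathway lists, by role, with the 9 tested members in red and named, other genes in grey, filled where called at an adjusted p under 0.05, and the list median as a blue line. The 3 receptors lie between -4.50 and -2.18, the ligands spread on both sides of 0, and the medians of ligand shedding (-1.59) and of inhibitors and feedback (-1.29) lie left of 0.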

How the data were processed

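RNA from 3 TNF-α and 3 TNF-α+EMO samples of rat RA-FLS was sequenced as poly(A)-selected paired-end libraries, which the study calls biological replicates. The submitters' processing notes name FastQC, Trimmomatic, HISAT2 and the build Rnor_6.0. The counting program and strand setting are not given in the sources used here. The authors deposited raw counts per gene, used here for every result, and FPKM values (scaled by gene length and mapped reads), used for none. Their comparison columns (group means, fold changes and p-values) were not used.

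Counts were filtered (10 or more in 3 or more libraries), TMM-scaled and analysed in edgeR 4.0.16 under R 4.3.3 (robust quasi-likelihood F test, group as the only term, Benjamini-Hochberg over all genes tested). The procedure was also run on simulated data, in which only a small part of the genes changed, equally in both directions. In the real data 80.9% of the genes tested were called, so the simulation could not test TMM scaling under so broad a change. Normalized counts are counts divided by the TMM effective library size relative to its mean. TPM was recomputed from the counts and the deposited gene length. Shares and log2 ratios within a library (0.5 count added) were compared by exact permutation of the 6 libraries. With 16813322 to 17794455 counts per library, 3 counts were taken as the floor, and intervals at 95% cover counting error only, since reads are not independent molecules. Promoter sequences are from RefSeq (GRCr8).

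Beyond the members, the genes named were the 2 lowest and 2 highest called genes of each pathway role list with a mean of at least 100 counts, the 3 nearest to Egfr in pattern, and markers, while the neighbours, Adam17, Adam10, Cblb, Junb, Spry2, Spred1 and Lrig1 were added after their values were seen. The members and lists were chosen with earlier results of these data known. Alternatives were DESeq2 1.42.0, other scalings, filters and fold thresholds, the replicate number as a block, and leaving out each library. Nrg3, Col1a2 and Pecam1 of the lists were not analysed here. Some genes of the lists are not reported here.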

Additional observations from a re-analysis of the deposited data

How the results depend on the processing

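Each call of the 8 called members kept its direction and its side of the threshold under every alternative that could test the gene, from DESeq2 and other scalings to leaving out each library. Btc could not be tested without any TNF-α library or with at least 50 counts in 3 libraries, and Areg not with that filter, under which 1 member in place of 2 was called higher and was a DEG. Over the fits that each left out a library, the log2 fold change was -4.61 to -4.38 for Egfr, -2.30 to -2.08 for Erbb2, -3.35 to -3.03 for Erbb3, -1.51 to -1.31 for Hbegf, -5.23 to -3.84 for Btc, 1.11 to 1.55 for Tgfa, 1.61 to 2.15 for Areg, -0.86 to -0.70 for Errfi1 and -0.049 to 0.15 for Nrg1. Nrg1 was reversed with library totals (-0.044) and without TNF-α replicate 1 (-0.049) or 3 (-0.019). Library totals moved the median of all genes to -0.12 and that of the pathway genes to -0.85. At an absolute log2 fold change over 2, DEGs numbered 809 higher and 2255 lower, 0 of them higher members, and 2 and 14 of the pathway genes. Without length scaling, the difference in share (EMO minus TNF-α, in percentage points) was -29.2 for Egfr, -20.9 for Hbegf, 3.10 for Areg, -3.48 for Btc and -0.53 for Nrg1, which reversed, and the log2 ratio of ligands to receptors was 2.95. The cause of these shifts other than the settings themselves was not tested. With the replicate number as a block, Egfr was at -4.50 (adjusted p = 2.9e-09, edgeR), Tgfa at 1.45 and Areg at 1.87, and no call of a member changed. Same-numbered libraries correlated at 0.02, -0.00051 and 0.06 in their deviations across genes, and the labels do not say that they were handled together. Low counts limit the precision for Areg and Btc, and Erbb4, Egf, Nrg2 and Nrg4 had too few to be tested.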
